A study of Mus musculus with 797 samples.

Results

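The genes described here are 27 mouse genes of inhibitory neurotransmission: subunits of the GABA-A, GABA-B and glycine receptors and 4 proteins that build or assemble the postsynaptic site, among them the scaffold gephyrin. They were chosen by name and function, with earlier results of these data known. All 27 had a row among the 32285 gene rows of the count table. The 27 genes do not include every GABA-A receptor subunit, and other subunits are not analysed here.

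The measurements are read counts from 797 single nuclei of C57Bl/6J mice injected in young adulthood, as far as age is given, with 1 adeno-associated virus (AAV) in the brain-penetrant capsid PHP.eB. Every virus drove the nuclear yellow reporter H2B-SYFP2 from 1 enhancer or promoter, and reporter-positive nuclei were sorted 3 to 4 weeks after a dose of 5e11 vector genomes per mouse. The 20 vector labels hold 39 to 40 nuclei each: CMV, hSyn1, hI56i, DLX2.0, AiE0078h, AiE0140h, AiE0387m, AiE0390m, AiE0391h, AiE0401h, AiE0410m, AiE0445h_3xC2, AiE0447h, AiE0450h, AiE0452h, AiE0475m, AiE0600m, AiE0682h, AiE0743m_3xC2 and AiE0779m. All nuclei thus came from animals that carried a vector, no uninjected animal was among them, and each vector selected the cells in which its own element was active. No animal is named, so a class of nuclei counts as 1 sample: there is no replicate check, no test was run, and the error given is counting error or the spread over nuclei.

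GABA-A receptors are chloride channels of 5 subunits, usually alpha and beta subunits together with a gamma or a delta subunit. The alpha subunit sets much of the receptor's pharmacology and location, gamma-containing receptors mostly gather at synapses, and delta-containing receptors mostly lie outside them and give a tonic current. GABA-B receptors are G protein-coupled dimers, and glycine receptors are chloride channels of alpha and beta subunits. Gephyrin holds glycine receptors, through their beta subunit, and many GABA-A receptors at inhibitory synapses.

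The alpha subunits are the members whose sequence best shows how they differ, since diazepam binding depends in part on 1 residue in the extracellular domain. Receptors with a histidine there can bind classical benzodiazepines and receptors with an arginine do not. The coding sequences of the 5 alpha subunits in the GENCODE M21 annotation among the members were aligned to that of Gabra2, and 426 residues were aligned in all 5. At 29 of these Gabra2, Gabra3 and Gabra5 shared a residue and Gabra4 and Gabra6 shared another, and 1 of the 29 was histidine in the first set and arginine in the second. Each line gives 51 coding bases, 5′ to 3′ on the gene's strand, with the codon of that residue in capitals.
Gabra2: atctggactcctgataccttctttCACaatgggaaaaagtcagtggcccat
Gabra3: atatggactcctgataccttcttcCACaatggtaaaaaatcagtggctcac
Gabra5: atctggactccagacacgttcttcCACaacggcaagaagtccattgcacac
Gabra4: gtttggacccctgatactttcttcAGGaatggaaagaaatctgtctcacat
Gabra6: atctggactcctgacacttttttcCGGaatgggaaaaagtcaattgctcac

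The windows lie in coding exons, each within 1 exon and on the minus strand of mm10. That of Gabra2 is at chr5:71014481-71014531 in exon 5 of 10, that of Gabra3 at chrX:72501144-72501194 in exon 5 of 10, and that of Gabra5 at chr7:57488867-57488917 in exon 5 of 10. That of Gabra4 is at chr5:71641128-71641178 in exon 4 of 9 and that of Gabra6 at chr11:42317623-42317673 in exon 4 of 9. The codon is numbered in the longest complete coding sequence annotated for each gene. It is number 129 from the start codon in Gabra2, 195 in Gabra3, 136 in Gabra5, 161 in Gabra4 and 119 in Gabra6. These numbers need not hold for other forms of the subunits. In the window 30 of the 51 bases were alike in all 5 genes. Over the aligned protein, Gabra3 and Gabra5 were 73.6% and 73.2% identical to Gabra2, and Gabra4 and Gabra6 61.0% and 61.5%.

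After nuclei with under 50000 reads or 1000 genes were left out, 781 nuclei remained. Nuclei with at least 10 CPM (read counts scaled to 1000000 per nucleus) of Slc17a7, the vesicular glutamate transporter of cortical-type neurons, and under 10 CPM of Gad1 and Gad2 together, the GABA-synthesising enzymes, were called glutamatergic (385 nuclei), and the reverse GABAergic (310 nuclei). A further 50 nuclei had both and 36 neither, and these were left out of the comparisons. The median was 279379 reads and 2679 genes in glutamatergic nuclei and 318172.5 reads and 3016.5 genes in GABAergic nuclei. All nuclei are labelled striatum, but the defining genes of spiny projection neurons, the main striatal neuron type, were scarce: Adora2a and Isl1 had no read in any of the 781 nuclei (a count of 0 here leaves room for at most 0.384%), Drd2 was read in 0.640% and Drd1 in 6.02%. Genes of cortical and other pallial glutamatergic neurons (Neurod6, Neurod2, Tbr1) were read in 20.4% to 26% of the same nuclei, so the nuclei are named below by class markers and not as striatal neurons. Stray reads of the other class were rare: Neurod6, Neurod2 and Tbr1 were read in at most 2.26% of GABAergic nuclei and the 5 genes of the GABAergic list (Gad1, Gad2, Slc32a1, Dlx1, Dlx2) in at most 0.779% of glutamatergic nuclei, where Slc17a7, Gad1 and Gad2 had set the classes. Some markers of other cell types were read in few nuclei: Aqp4 was read in 1.15% of nuclei, Mog in 1.79%, Pdgfra in 0.384% and Cx3cr1 in 0.896%, but Slc4a4 of the astrocyte list in 17.9%. The summed level of the 5 astrocyte genes was 42.5 CPM in glutamatergic and 55.8 CPM in GABAergic nuclei. Their part in the results was not tested.

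The first comparison asks which receptor genes differ between the glutamatergic and the GABAergic nuclei that the vectors labelled. Gabra2 and Gabrb1 were higher in glutamatergic nuclei, and Gabrg3 and Gabrd in GABAergic nuclei, while gephyrin, both GABA-B subunits, Gabra4 and Gabrb2 were read in similar shares of both classes. Levels are means of log2(CPM+1) over nuclei, and a gene was counted as different when the means lay at least 1 apart. Of the 27 members, 15 passed the filter of being read in at least 10% of nuclei on average over both classes. Of these 15, 2 were higher in glutamatergic nuclei, where 7.03% of the 9179 genes that passed were, and 2 were higher in GABAergic nuclei, where 9.86% were. The members counted in either direction were 26.7% of the 15, against 16.9% of all genes, and the median absolute difference was 0.51 for the members and 0.37 for all genes. The median difference of all genes was -0.14, and that of the members -0.11.

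**Figure D1:**
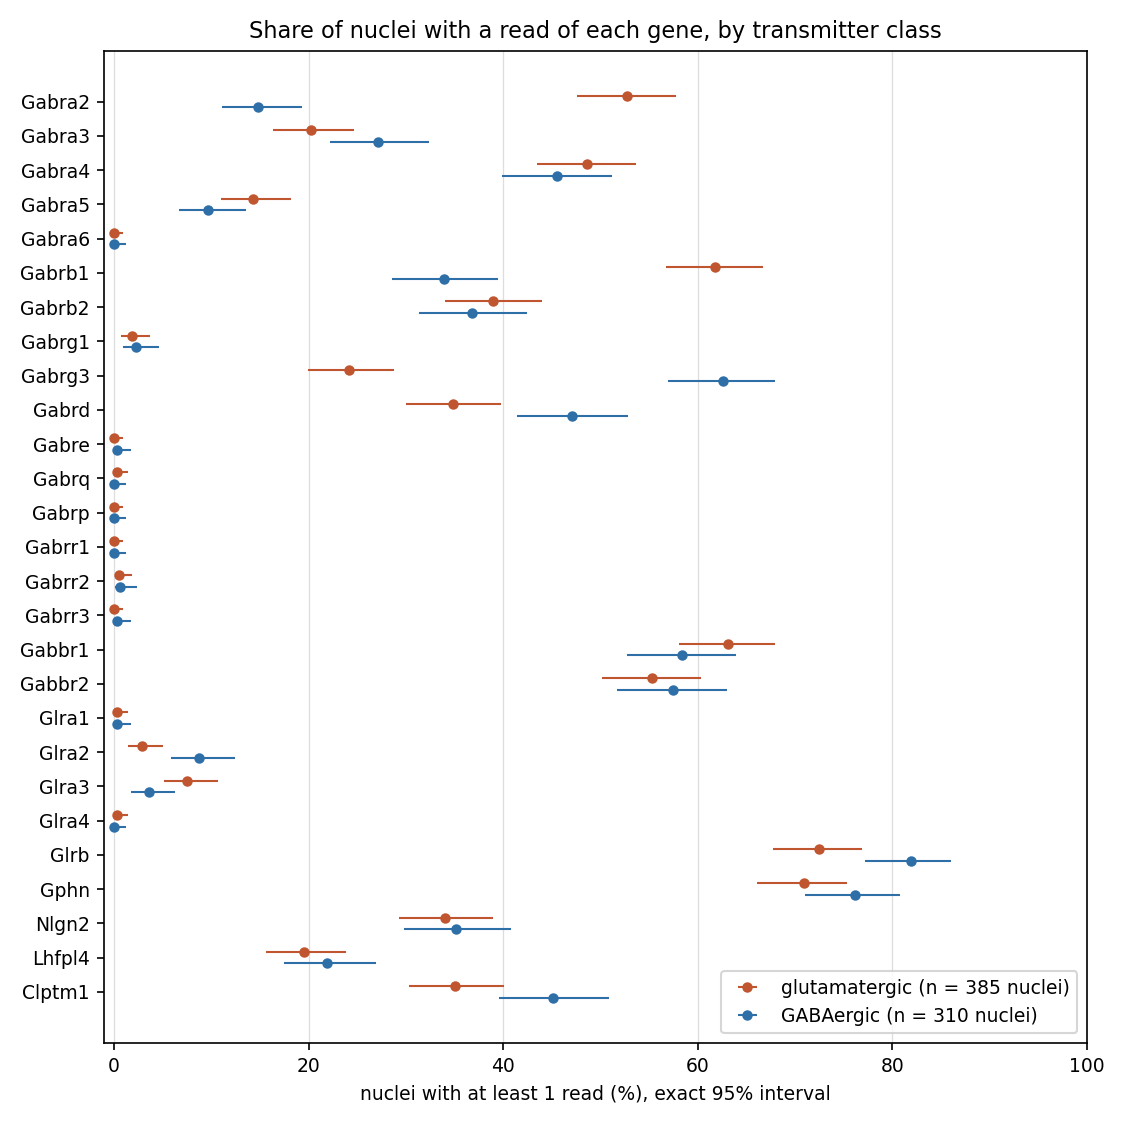
Share of nuclei with at least 1 read of each of the 27 genes (horizontal axis, percent) in 385 glutamatergic and 310 GABAergic nuclei; points are shares and lines exact 95% intervals, which cover counting error only. The intervals of the 2 classes lie apart for Gabra2, Gabrb1, Gabrg3, Gabrd, Glra2 and Glrb and touch or overlap for the others.

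Among the alpha subunits, Gabra2 (chr5:70957597-71095849, minus strand) differed most between the classes. It was read in 203 of 385 glutamatergic nuclei (52.7%, exact 95% interval 47.6 to 57.8) and in 46 of 310 GABAergic nuclei (14.8%, 11.1 to 19.3). Single glutamatergic nuclei ran from 0 to 1476 CPM with a median of 8.70, and GABAergic nuclei from 0 to 963 CPM with a median of 0. The mean level was 3.98 ± 3.99 (SD over nuclei) against 1.004 ± 2.51, a difference of 2.98 on the log2(CPM+1) scale. The ranges of single nuclei overlap, and nuclei of both classes had no read. Among nuclei with a read, the median was 230 CPM in glutamatergic and 156 CPM in GABAergic nuclei.

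The other alpha subunits did not separate the classes by 1 log2 unit. Gabra4, the arginine subunit that often pairs with delta in forebrain neurons, was read in 48.6% (43.5 to 53.7) of glutamatergic and 45.5% (39.8 to 51.2) of GABAergic nuclei, at mean levels of 3.77 ± 4.08 and 3.49 ± 4.05. Gabra3, a histidine subunit, was read in 20.3% and 27.1%, at 1.33 ± 2.78 and 1.84 ± 3.20. Gabra5, the histidine subunit known for extrasynaptic receptors of the hippocampus and cortex, was read in 14.3% and 9.68%, at 1.004 ± 2.57 and 0.69 ± 2.21. Gabra6, a subunit of cerebellar granule cells, had no read in either class, which allows shares of up to 0.779% and 0.968%. After each nucleus was thinned to 100000 reads, which left 383 glutamatergic and 310 GABAergic nuclei, 19.6% and 33.2% had no read of Gabra2, Gabra3, Gabra4 or Gabra5. A read of exactly 1 of the 4 was found in 41.5% and 44.5%, and reads of all 4 in 14 glutamatergic nuclei and no GABAergic one.

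Of the beta subunits, which carry part of the GABA binding site, Gabrb1 (chr5:71658113-72149037, plus strand) was read in 238 of 385 glutamatergic nuclei (61.8%, 56.8 to 66.7) and in 105 of 310 GABAergic nuclei (33.9%, 28.6 to 39.4). Glutamatergic nuclei ran from 0 to 2709 CPM with a median of 141, and GABAergic nuclei from 0 to 2661 CPM with a median of 0. Mean levels were 5.11 ± 4.20 and 2.55 ± 3.75, a difference of 2.56, with single nuclei of both classes over the whole range. Gabrb2 did not differ in this way: it was read in 39% and 36.8% of nuclei, at 2.77 ± 3.66 and 2.64 ± 3.64. Gabrb1 and Gabra4 lie head to head on chromosome 5 and overlap by 196 bases, and since the strand setting of the counting is not given, reads from that stretch cannot be assigned.

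Gabrg3 and Gabrd encode a gamma and the delta subunit, which take the same kind of place beside alpha and beta subunits. Gabrg3 (chr7:56716465-57387188, minus strand) was read in 93 of 385 glutamatergic nuclei (24.2%, 20 to 28.8) and in 194 of 310 GABAergic nuclei (62.6%, 56.9 to 68.0). Glutamatergic nuclei ran from 0 to 2016 CPM with a median of 0, and GABAergic nuclei from 0 to 2024 CPM with a median of 138. Mean levels were 1.82 ± 3.35 and 5.02 ± 4.15, a difference of -3.20, the largest among the 27 genes. Gabrd (chr4:155384980-155398112, minus strand), the delta subunit of tonic receptors, was read in 134 glutamatergic nuclei (34.8%, 30.1 to 39.8) and 146 GABAergic nuclei (47.1%, 41.4 to 52.8), with medians of 0 and highest values of 2594 and 2350 CPM. Its mean levels were 2.79 ± 4.02 and 3.91 ± 4.36. The difference of -1.11 lies just past the limit of 1 and was smaller than 1 without the label AiE0475m (-0.92) or AiE0682h (-0.98), and -0.97 when differences were centred on the median of all genes.

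The GABA-B receptor needs both of its subunits, and both genes were read in most nuclei of each class without differing by 1 log2 unit. Gabbr1, which binds GABA, was read in 63.1% (58.1 to 68.0) of glutamatergic and 58.4% (52.7 to 63.9) of GABAergic nuclei, at 4.67 ± 3.92 and 4.23 ± 3.86. Gabbr2, which couples to the G protein, was read in 55.3% (50.2 to 60.4) and 57.4% (51.7 to 63.0), at 4.04 ± 3.92 and 4.34 ± 3.95.

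The glycine receptor's beta subunit was common and its alpha subunits were rare. Glrb, which anchors the receptor to gephyrin, was read in 72.5% (67.7 to 76.9) of glutamatergic and 81.9% (77.2 to 86.1) of GABAergic nuclei, at 5.66 ± 3.83 and 6.52 ± 3.49. Of the alpha subunits that form the channel with it, Glra2 was read in 11 of 385 glutamatergic (2.86%, 1.43 to 5.05) and 27 of 310 GABAergic nuclei (8.71%, 5.82 to 12.4). Glra3 was read in 29 glutamatergic (7.53%, 5.10 to 10.6) and 11 GABAergic nuclei (3.55%, 1.78 to 6.26). Glra1, the alpha subunit of spinal cord and brainstem receptors, was read in 1 nucleus of each class, and Glra4 in 1 glutamatergic nucleus. Glrb was thus read in many more nuclei than all 4 alpha subunits combined.

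Among the scaffold and assembly genes, Gphn was read in 70.9% (66.1 to 75.4) of glutamatergic and 76.1% (71.0 to 80.8) of GABAergic nuclei, at 4.87 ± 3.52 and 5.43 ± 3.43. Nlgn2, the adhesion protein of inhibitory synapses, was read in 34% and 35.2%, at 2.05 ± 3.06 and 1.94 ± 2.93. Lhfpl4, which links GABA-A receptors to neuroligin 2, was read in 19.5% and 21.9%, at 1.35 ± 2.87 and 1.46 ± 2.94. Clptm1, which holds GABA-A subunits inside the cell and limits their assembly, was read in 35.1% (30.3 to 40.1) and 45.2% (39.5 to 50.9), at 2.59 ± 3.75 and 3.51 ± 4.08. None of the 4 differed by 1 log2 unit between the classes.

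The remaining members had almost no reads in these nuclei. Gabrg1, a gamma subunit also found in glia, was read in 7 nuclei of each class (1.82% and 2.26%). Gabrr2, a rho subunit of retinal receptors, was read in 2 nuclei of each class. Gabre was read in 1 GABAergic, Gabrq in 1 glutamatergic and Gabrr3 in 1 GABAergic nucleus, and Gabrp and Gabrr1 in none. For a gene without a read the limits are again 0.779% of glutamatergic and 0.968% of GABAergic nuclei, and they hold for reads at this depth and not for expression.

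Levels of different genes can be set side by side only per length, so summed CPM were divided by the kilobases (kb) of annotated exons. In glutamatergic nuclei Glrb stood first with 63.3 CPM per kb, followed by Gabrd with 59.7, Gphn with 43.6 and Gabra4 with 29.5. In GABAergic nuclei Gabrd stood first with 86.7 CPM per kb, then Glrb with 80.9, Gphn with 48.8 and Gabbr2 with 27.9. Gabrg3, read in more GABAergic nuclei than Gabrd, came to 20.7 CPM per kb of its 11.9 exonic kb. Gabrd has 2.88 exonic kb. Of the GABAergic subclasses set out below, Gabrd stood first in Pvalb nuclei only, with 130 CPM per kb. It came behind Glrb and Gphn in Sst nuclei (41.3) and in Adarb2 nuclei (53.9). The exact Poisson interval of Gabrd in GABAergic nuclei was 85.6 to 87.8, and that of Glrb 80.1 to 81.8. These intervals cover counting error only, and PCR copies are not independent molecules, so neighbours in this order are not shown to differ. The order also rests on reads having been counted in exons alone, which could not be checked. With introns, Gabrg3 spans 671 kb and Gabrd 13.1 kb.

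Subclasses within each class were set by the highest of 3 marker genes at or above 10 CPM. Pvalb marked 137 GABAergic nuclei, Sst 104 and Adarb2 52, genes known from separate interneuron types. Cux2 marked 75 glutamatergic nuclei, Rorb 75 and Foxp2 50, genes known from upper, middle and deep cortical layers. The remaining 17 GABAergic and 185 glutamatergic nuclei had none of their 3 markers at that level. Median reads lay between 314569.5 and 332812 in the GABAergic subclasses and between 270290 and 289281.5 in the glutamatergic ones. Median genes were 3366 in Pvalb, 2829.5 in Sst and 2474 in Adarb2 nuclei. In Cux2, Rorb and Foxp2 nuclei they were 2699, 2592 and 2673.5.

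**Figure D2:**
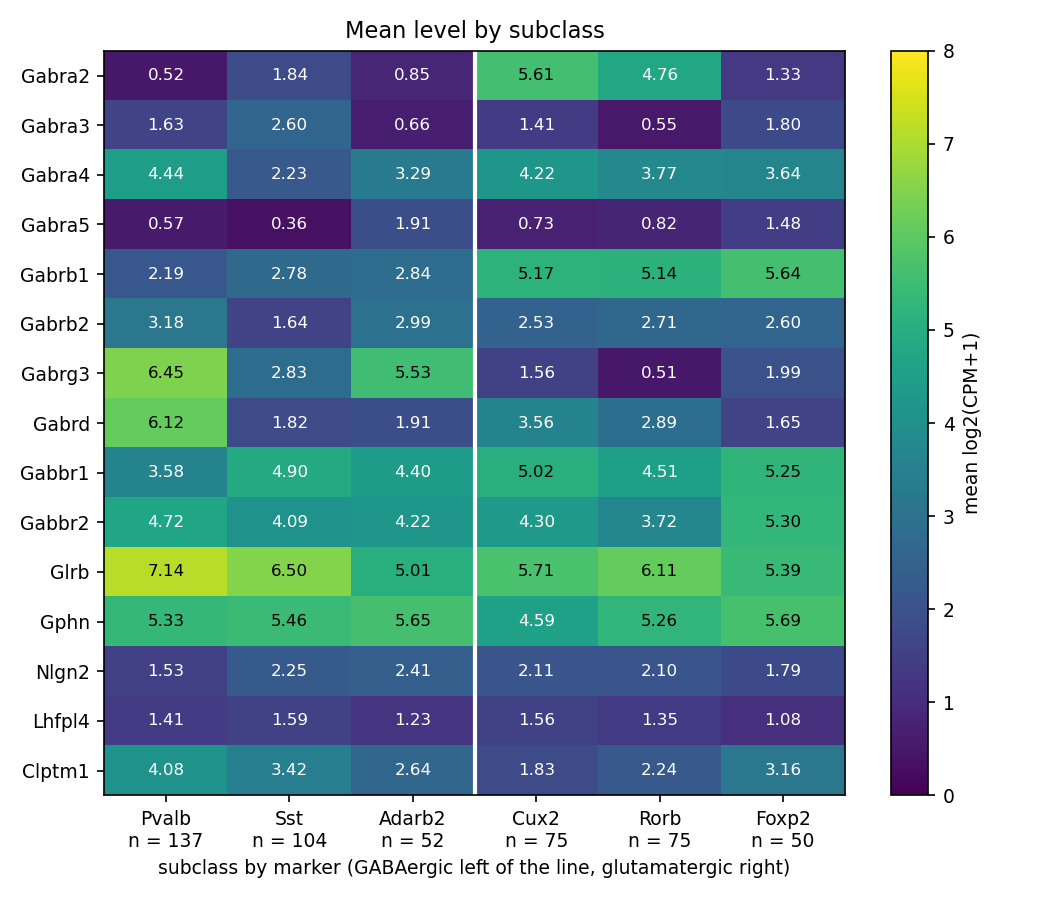
Mean log2(CPM+1) of the 15 members read in at least 10% of either class (rows) in the 6 subclasses (columns, with the number of nuclei); colour and printed value show the same mean. Gabrg3 and Gabrd are highest in Pvalb nuclei, Gabra2 in Cux2 and Rorb nuclei, and Gabrb1 lies above 5 in the 3 glutamatergic columns only.

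Pvalb and Sst nuclei differed most in the delta and gamma3 subunit genes. Of 14 members that passed the filter, 6 lay at least 1 log2 unit apart, where 14.3% of 9315 genes did, 901 of them higher in Pvalb and 430 in Sst nuclei. Gabrd was read in 101 of 137 Pvalb nuclei (73.7%, 65.5 to 80.9) and 23 of 104 Sst nuclei (22.1%, 14.6 to 31.3), at mean levels of 6.12 ± 3.98 and 1.82 ± 3.62, a difference of 4.29. Gabrg3 was read in 77.4% and 40.4%, at 6.45 ± 3.73 and 2.83 ± 3.74. Gabra4 was read in 58.4% and 28.8%, at 4.44 ± 4.05 and 2.23 ± 3.68, and Gabrb2 in 44.5% and 22.1%, at 3.18 ± 3.77 and 1.64 ± 3.16.

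Alpha4, beta2, gamma3 and delta subunit genes thus all stood higher in the Pvalb nuclei, and 2 members stood higher in the Sst nuclei. Gabra2 was read in 11 of 137 Pvalb nuclei (8.03%) and 28 of 104 Sst nuclei (26.9%), at 0.52 ± 1.89 and 1.84 ± 3.15. Gabbr1 was at 3.58 ± 3.65 in Pvalb and 4.90 ± 4.01 in Sst nuclei, a difference of -1.31, which was -0.44 in library set A alone. Of the 104 Sst nuclei 25 were from library set B, where Gabbr1 was high in both classes, and of the 137 Pvalb nuclei 22; the part of this in the Gabbr1 difference was not tested.

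Adarb2 nuclei shared the high Gabrg3 of Pvalb nuclei but not their Gabrd. Gabrg3 was read in 35 of 52 Adarb2 nuclei (67.3%, 52.9 to 79.7) at 5.53 ± 4.19, and Gabrd in 12 (23.1%, 12.5 to 36.8) at 1.91 ± 3.76. Between Pvalb and Adarb2 nuclei 5 of 14 members lay 1 log2 unit apart, where 25.9% of 8958 genes did, and the median of all genes was shifted by 0.36 toward Pvalb. Gabrd, Glrb (7.14 ± 3.08 against 5.01 ± 4.00), Clptm1 (4.08 ± 4.14 against 2.64 ± 3.93) and Gabra4 (4.44 against 3.29) were higher in Pvalb nuclei, and Gabra5 (0.57 ± 1.85 against 1.91 ± 3.58) was higher in Adarb2 nuclei. Gabra4 lay 0.80 apart when centred on that median, and Clptm1 0.88 apart in library set A alone.

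Sst and Adarb2 nuclei differed in 6 of 15 members, where 18.6% of 8996 genes did, 1290 of them higher in Sst and 381 in Adarb2 nuclei. The median of all genes was shifted by 0.28 toward Sst. Gabra3, the alpha subunit known from monoaminergic and cortical neurons, was read in 39 of 104 Sst nuclei (37.5%, 28.2 to 47.5) and in 5 of 52 Adarb2 nuclei (9.62%, 3.20 to 21), at 2.60 ± 3.55 and 0.66 ± 2.05. Glrb was higher in Sst nuclei as well, at 6.50 ± 3.50. Gabrg3, Gabra5, Gabrb2 and Gabra4 were higher in Adarb2 nuclei, with differences of -2.71, -1.55, -1.35 and -1.05 (Sst minus Adarb2). That of Gabra4 was -0.56 in library set A alone.

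In the glutamatergic subclasses Gabra2 divided Cux2 and Rorb nuclei from Foxp2 nuclei. It was read in 55 of 75 Cux2 nuclei (73.3%, 61.9 to 82.9), 48 of 75 Rorb nuclei (64.0%, 52.1 to 74.8) and 9 of 50 Foxp2 nuclei (18%, 8.58 to 31.4), at 5.61 ± 3.72, 4.76 ± 3.91 and 1.33 ± 2.95. The level of Foxp2 nuclei lies within the range of the GABAergic subclasses, whose means ran from 0.52 to 1.84. Gabrb1 had no such division, at 5.17 ± 4.13, 5.14 ± 4.34 and 5.64 ± 4.05.

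Cux2 and Rorb nuclei differed in 2 of 16 members, where 7.71% of 9058 genes did, and both were higher in Cux2 nuclei. Glra3 was read in 15 of 75 Cux2 nuclei (20%, 11.6 to 30.8) and in 3 of 75 Rorb nuclei (4.00%, 0.833 to 11.2), at 1.54 ± 3.15 and 0.22 ± 1.17. Gabrg3 was read in 16 and 5 nuclei, at 1.56 ± 3.08 and 0.51 ± 1.95, a difference of 1.05 that was 0.71 in library set A alone. Without library set B the difference of Glra3 was 0.95. Of the 29 glutamatergic nuclei with a Glra3 read, 15 were thus Cux2 nuclei.

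Cux2 and Foxp2 nuclei differed in 6 of 16 members, where 15.9% of 9114 genes did. Gabra2, Gabrd (3.56 ± 4.22 against 1.65 ± 3.46) and Glra3 were higher in Cux2 nuclei. Clptm1 (1.83 ± 3.10 against 3.16 ± 3.95), Gphn (4.59 ± 3.61 against 5.69 ± 3.25) and Gabbr2 (4.30 ± 3.99 against 5.30 ± 4.03) were higher in Foxp2 nuclei, the last with a difference of -1.001. The calls of Glra3 (0.93) and Gphn (-0.99) were lost without library set B, and that of Gabbr2 (-0.96) when centred on the median of all genes.

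Rorb and Foxp2 nuclei differed in 5 of 15 members, where 16.4% of 9001 genes did. Gabra2 and Gabrd (2.89 ± 4.11 in Rorb nuclei) were higher in Rorb nuclei, by 3.43 and 1.24, and the latter was 0.83 among nuclei with exactly 1 of the 3 markers. Gabbr2, Gabrg3 and Gabra3 were higher in Foxp2 nuclei, with differences of -1.58, -1.48 and -1.25. That of Gabra3 was -0.89 in library set A alone. Gabra3 stood at 0.55 ± 1.92 in Rorb nuclei, the lowest of the 6 subclasses, and at 1.80 ± 3.19 in Foxp2 nuclei.

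**Figure D3:**
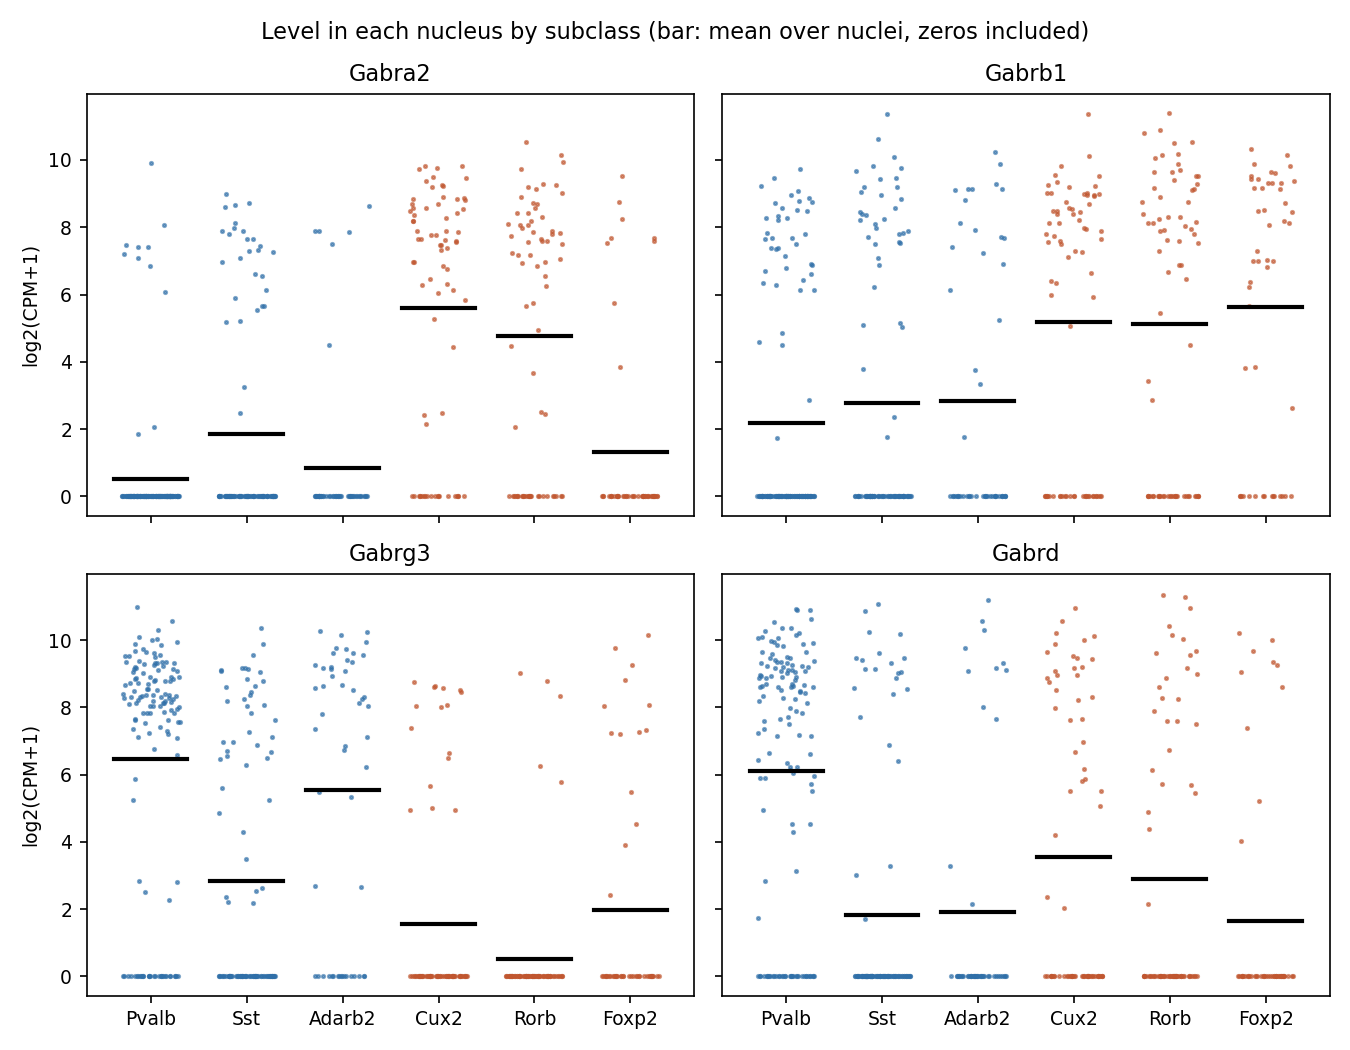
log2(CPM+1) of Gabra2, Gabrb1, Gabrg3 and Gabrd in every nucleus of the 6 subclasses; each point is 1 nucleus (blue GABAergic, rust glutamatergic) and the black bar the mean with zeros included. Many nuclei lie at 0 in every column, and the means, such as 6.12 for Gabrd in Pvalb and 1.82 in Sst nuclei, go with the shares of nuclei with a read, 73.7% and 22.1%.

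The library names in the labels carry 1 of 3 prefixes, called sets A, B and C here; the labels do not say what they stand for. Sets A, B and C held 243, 98 and 44 glutamatergic and 219, 58 and 33 GABAergic nuclei. Set B had more mitochondrial reads, on average 0.736% of reads in glutamatergic and 1.24% in GABAergic nuclei against 0.0117% to 0.0172% in sets A and C, and the summed level of 4 genes of cytoplasmic RNA (Rplp0, Rps3, Eef1a1, Actb) was 1107 and 1243 CPM in set B and 545 and 513 CPM in set A. Their part in the differences below was not tested.

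Within each set the class differences of Gabra2, Gabrb1 and Gabrg3 kept their direction and stayed above 2 log2 units. That of Gabra2 was 2.75, 3.18 and 3.12 in sets A, B and C, that of Gabrb1 2.59, 2.19 and 2.45, and that of Gabrg3 -3.44, -2.66 and -2.95. The difference of Gabrd was -1.51 and -1.31 in sets A and C but 0.34 in set B. Pvalb nuclei, where Gabrd was highest, made up 102 of the 219 GABAergic nuclei of set A. They were 22 of the 58 of set B and 13 of the 33 of set C. In Pvalb nuclei Gabrd was at 6.10 in set A and at 6.17 in sets B and C together. In Sst nuclei it was at 2.33 and 0.93, and in Adarb2 nuclei at 2.33 and 0.90. The part of these values in the Gabrd difference was not tested.

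**Figure D4:**
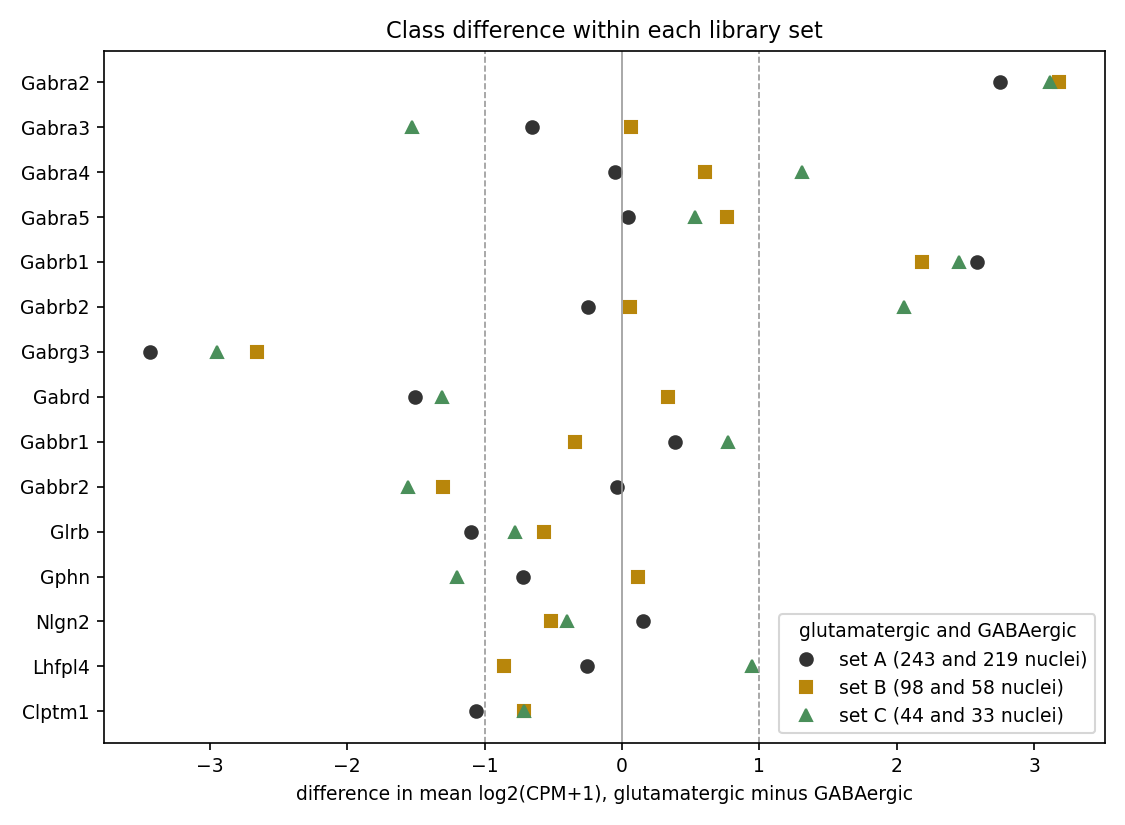
Difference in mean log2(CPM+1), glutamatergic minus GABAergic, of the 15 members that passed the filter, within library sets A, B and C; dashed lines mark differences of 1. Gabra2 and Gabrb1 lie right of 2 and Gabrg3 left of -2 in all 3 sets, while Gabrd lies on both sides of 0.

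Between sets, 9 of 15 members were at least 1 log2 unit higher in set B than in set A in glutamatergic nuclei, where 34.2% of 9538 genes lay that far apart, 3234 of them higher and 29 lower in set B. The median of all genes was shifted by 0.72, and 4 members lay 1 unit beyond that shift. In GABAergic nuclei 8 members were higher and 1 lower in set B, where 34.2% of 9788 genes lay that far apart. The median of all genes was shifted by 0.62, and 5 members, Gabrd among them, lay at least 1 unit from it.

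The GABA-B subunits and the neuroligin complex stood out in set B in both classes. Gabbr2 was at 5.57 and 3.53 in glutamatergic nuclei of sets B and A and at 6.87 and 3.57 in GABAergic nuclei. Gabbr1 was at 6.18 and 4.04 and at 6.52 and 3.66, Nlgn2 at 3.50 and 1.49 and at 4.02 and 1.33, and Lhfpl4 at 2.58 and 0.79 and at 3.44 and 1.04. Gabrd was the member lower in set B, at 2.88 against 4.25 in GABAergic nuclei.

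The class differences were also taken within each vector label with at least 5 nuclei of each class, which held for 12 labels. Gabra2 was higher in glutamatergic nuclei in 12 of 12 labels, by 1.12 to 5.54 with a median of 2.62. Gabrb1 was higher in 11 of 12, with hSyn1 the exception at -0.37, and a median of 2.52. Gabrg3 was lower in glutamatergic nuclei in 12 of 12 labels, from -5.30 to -0.23 with a median of -3.35, and the smallest difference was in AiE0390m. Gabrd was lower in 9 of 12, from -4.88 in AiE0475m to 1.88 in hSyn1.

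Clptm1, which missed the limit over all nuclei, was lower in glutamatergic nuclei in 11 of 12 labels with a median difference of -1.63. Glra2 was read in too few nuclei to pass the filter; its level was lower in glutamatergic nuclei in 11 labels and 0 in both classes in AiE0475m.

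**Figure D5:**
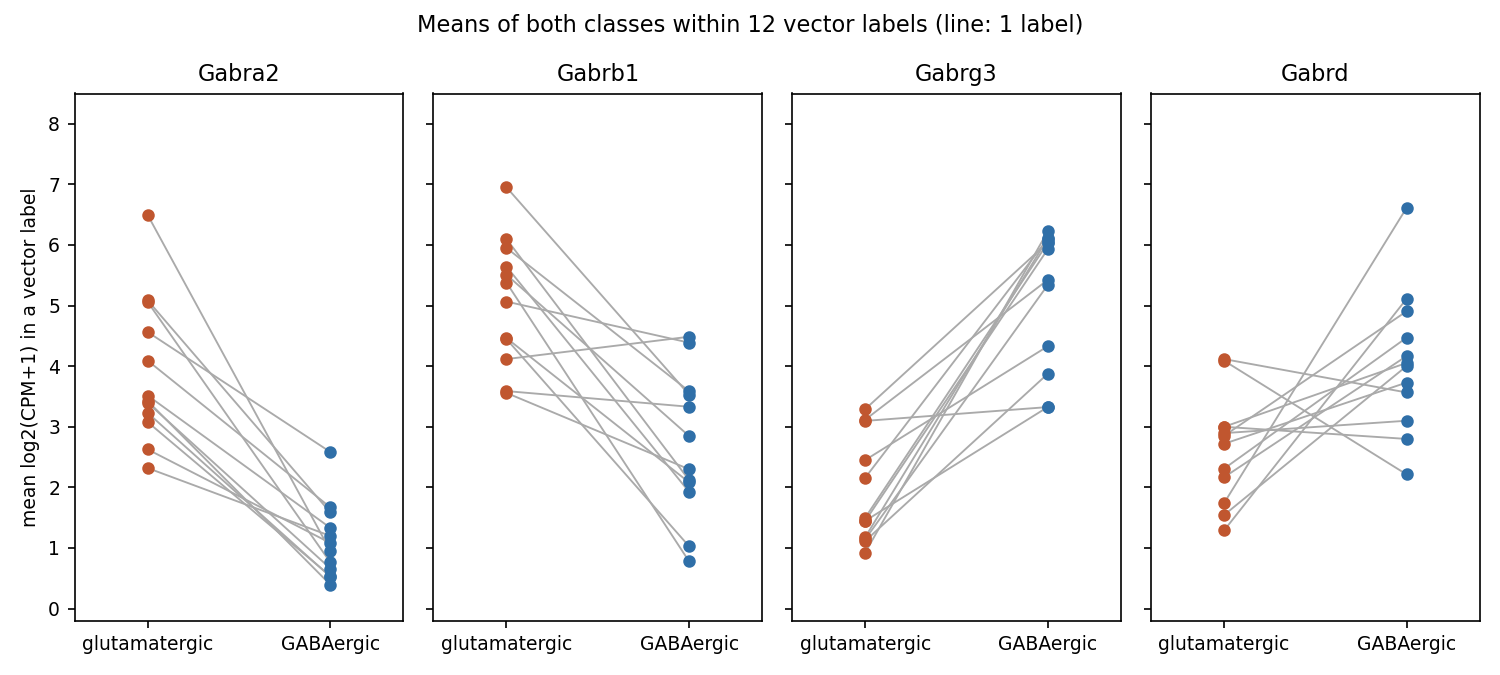
Mean log2(CPM+1) of Gabra2, Gabrb1, Gabrg3 and Gabrd in glutamatergic and GABAergic nuclei of the 12 vector labels with at least 5 nuclei of each class; each line joins the 2 means of 1 label. All 12 lines fall for Gabra2, all 12 rise for Gabrg3, 11 fall for Gabrb1 and 9 rise for Gabrd.

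Among labels of 1 class, members varied by up to 4.75 log2 units. In set A, 11 labels had at least 10 glutamatergic nuclei. Gphn ran over them from 2.13 in hSyn1 to 6.88 in AiE0387m with a median of 4.19, Glrb from 3.40 in AiE0401h to 7.96 in AiE0387m with a median of 5.25, and Gabra2 from 2.33 in AiE0743m_3xC2 to 6.40 in hSyn1 with a median of 3.62. hSyn1, the synapsin promoter, was among these the label with the highest Gabra2, Gabrd (4.57) and Gabrb2 (3.32). Its glutamatergic nuclei of set A, under 19 in number, had no read of Nlgn2 or Gabra3. So few nuclei leave room for a sizeable share with a read. Over all 19 glutamatergic hSyn1 nuclei, of any set, Nlgn2 was at 1.86 and Gabra3 at 0.99.

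In GABAergic nuclei of set A, 10 labels had at least 10 nuclei. Gabrg3 ran from 3.26 in DLX2.0 to 6.52 in AiE0452h with a median of 5.83, and Gabrd from 3.15 in hI56i to 6.62 in AiE0475m with a median of 4.22. Gabra2 stayed between 0 in CMV and 1.43 in AiE0390m, below the lowest glutamatergic label. Each label is 1 sample of few nuclei and mixes subclasses, so differences between labels are given as values only.

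Single nuclei also show which subunit genes were read together. Reads in the same nucleus were counted after thinning to 100000 reads, over 105 pairs of the 15 members in each class. The share of nuclei with the second gene was, in the median pair, 6.96 percentage points higher in nuclei with the first gene than without it in glutamatergic nuclei and 5.25 points in GABAergic nuclei. Pairs are set beside these medians, as a description.

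In GABAergic nuclei, pooled over subclasses, Gabrg3 was read less often in nuclei with Gabra2 than without. Gabrg3 was read in 14 of 42 GABAergic nuclei with Gabra2 (33.3%) and in 64.6% of those without, 31.2 points less, the lowest of the 105 pairs. Gabrd was read in 28.6% of the nuclei with Gabra2 and in 48.1% without. Gabrg3 and Gabrd went together: Gabrd was read in 101 of 187 nuclei with Gabrg3 (54.0%) and in 32.5% without. Median genes per nucleus were alike with and without Gabra2 (2834 and 2843.5), and higher with Gabrg3 than without (2952 and 2650). The subclasses differed in these genes: before thinning, Gabra2 was read in 8.03% of Pvalb and 26.9% of Sst nuclei. Gabrg3 was read in 77.4% and 40.4%, and Gabrd in 73.7% and 22.1%. The part of the subclasses in these pairs was not tested.

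The neighbours Gabra4 and Gabrb1 were read together in 59 GABAergic nuclei. Gabrb1 was read in 43.4% of GABAergic nuclei with Gabra4 and in 23% without, 20.4 points more. In glutamatergic nuclei, where Gabrb1 was common, the shares were 63.9% and 58.0%, 5.93 points apart and below the median pair.

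In glutamatergic nuclei the pairs with the largest surplus joined Gabra3 with the synaptic adhesion genes. Nlgn2 was read in 53.2% of nuclei with Gabra3 and 25.2% without, and Lhfpl4 in 40.3% and 13.4%. Lhfpl4 was read in 36.4% of nuclei with Nlgn2 and 10.9% without. Median genes per nucleus were 2992 with Gabra3 and 2480 without, and 2765 with Nlgn2 and 2470 without. Gabra3, Nlgn2 and Lhfpl4 were also each higher in set B than in set A in these nuclei. The part of both differences in the pairs was not tested. The GABA-B subunits, which work as a pair, had surpluses near the median, 8.48 points in glutamatergic and 6.67 points in GABAergic nuclei.

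The number of members read per nucleus was alike in the classes, with a median of 6 in both after thinning. It ranged from 1 to 16 in glutamatergic and from 1 to 14 in GABAergic nuclei. By subclass the median was 7 in Pvalb, 5 in Sst, 6 in Adarb2, 6 in Cux2, 5 in Rorb and 6 in Foxp2 nuclei.

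Other genes of the pathway were taken from a list of 31: gephyrin partners and adhesion proteins, GABA-A trafficking proteins, GABA-B auxiliary subunits and effector channels, and chloride and glycine transporters. Of these, 23 passed the filter between the classes, 4 were higher in glutamatergic nuclei and 1 in GABAergic nuclei, beside the same 7.03% and 9.86% of all genes. Igsf9b, an adhesion protein linked to neuroligin 2, was read in 71.2% of glutamatergic and 34.5% of GABAergic nuclei, at 5.22 ± 3.72 and 2.24 ± 3.31.

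The potassium channel genes Kcnj6 and Kcnj9, which GABA-B receptors open, were also higher in glutamatergic nuclei, at 3.03 ± 3.53 and 3.50 ± 3.91 against 1.42 ± 2.74 and 2.21 ± 3.43. Nsf, an ATPase of membrane fusion that also binds receptor subunits, was higher in GABAergic nuclei, at 6.71 ± 3.52 against 5.57 ± 4.09. Slc12a5, the potassium-chloride cotransporter that keeps chloride low in neurons, was read in 61.6% and 62.3% at 4.48 ± 3.81 and 4.63 ± 3.83. Slc6a5, the glycine transporter of glycine-releasing neurons, had no read in either class.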

How the data were processed

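Libraries were made with SMART-Seq v4 and Nextera XT, per the labels, and the deposited table gives unnormalized read counts for each gene in each nucleus. Alignment is listed as STAR 2.7.2a, with build mm10, per the submitters' processing notes. Which counter and annotation were used, whether strand was read and how introns were treated is not given in the sources used here, so levels of long genes and of genes that overlap on opposite strands (7 of the 27 members have such an overlap in their exons) are uncertain. There are no molecular identifiers. Of 2501 columns, 797 were matched to samples by library name and 1704 were not used. Nuclei had 8712 to 666436 reads with a median of 290674, and 16 nuclei under 50000 reads or 1000 genes were left out. Gene symbols matched 32158 of 32285 rows; rows without one held 0.0931% of reads.

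Counts were scaled to CPM, a pseudocount of 1 added and log2 taken (Python 3.11.15, numpy 2.4.6, scipy 1.17.1, pandas 2.3.3, figures with matplotlib 3.10.9). Shares carry exact Clopper-Pearson 95% intervals, and for 0 the limit is 3 counts; both cover counting error only. Nuclei of a class were pooled over vector labels. Since no animal is named, nuclei were not used as replicates. Alternatives were another pseudocount, class limit, filter and depth minimum, thinning, library set A alone, no set B, label means, single-marker subclasses, centring and leaving out each label. The calling step was tested on simulated data. Members read in at least 10% of either class are given with full values, the others with counts, and of the pathway list those past the limit, at most 8; Slc12a5 and Slc6a5 were named in addition, after their values were seen. The members and lists were chosen with earlier results of these data known. Positions and coding sequences are from GENCODE M21 (Biopython 1.88). No 2 of the 781 nuclei kept had identical counts. Thinning left out 5 of the 781 nuclei. No doublet calling was done. Each library is labelled as 1 sorted nucleus, which was not checked, and the 50 nuclei with both transmitter markers were left out of the comparisons. A gene of the pathway list that passed the limit is not reported here.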

Additional observations from a re-analysis of the deposited data

Results flagged for a closer look

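The nuclei left out of the class comparisons also had reads of the members. In the 50 nuclei with both transmitter markers, 16 members were read in a larger share of nuclei than a count of 0 allows (6.00%). Gabra4 was read in 70.0% of them (exact 95% interval 55.4 to 82.1), Gabra2 in 38% (24.7 to 52.8) and Gabrg3 in 52.0% (37.4 to 66.3). In the 36 nuclei with neither marker, 14 members were over the limit of 8.33%. The shares of all genes over these 2 limits were not computed, so both counts cannot be read as particular to the members. Gabrg1, read in 1.82% of glutamatergic and 2.26% of GABAergic nuclei, was read in 6 of these 36 (16.7%, 6.37 to 32.8), and Gphn in 58.3% (40.8 to 74.5). There is no uninjected control, and these differences were not tested.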

How the results depend on the processing

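Between glutamatergic and GABAergic nuclei, 4 members lay at least 1 log2 unit apart, 3 with a pseudocount of 10, 6 in library set A alone, and 3 to 5 when each vector label was left out in turn. Gabra2, Gabrb1 and Gabrg3 lay past the limit in all of these, with ranges of 2.88 to 3.08, 2.45 to 2.72 and -3.39 to -3.08 over the labels left out. Gabrd was at -0.72 with a pseudocount of 10 and -0.54 as the log2 ratio of summed CPM. Glrb and Clptm1 passed the limit in set A alone (-1.10 and -1.07), and Clptm1 also as a mean of label means (-1.13).

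With a pseudocount of 10, fewer members lay 1 log2 unit apart: 3 instead of 6 between Pvalb and Sst, 2 instead of 5 between Pvalb and Adarb2, 2 instead of 6 between Sst and Adarb2, 0 instead of 2 between Cux2 and Rorb, 2 instead of 6 between Cux2 and Foxp2, and 2 instead of 5 between Rorb and Foxp2. Between sets B and A it left 3 instead of 9 in glutamatergic and 5 instead of 9 in GABAergic nuclei. Between Cux2 and Rorb the count was 5 among nuclei with exactly 1 subclass marker, 1 without set B and 1 when centred on the median of all genes. That centring left 4 and 5 members between sets B and A in glutamatergic and GABAergic nuclei. A larger pseudocount shrinks differences by its construction. The cause of the other changes was not tested, and shares of all genes were not taken under these alternatives. Whether the members changed more than genes in general is thus not shown. No difference of at least 1 changed sign under these alternatives, but within library set B Gabrd was at 0.34. Of the members under the limit, Gabra4 (-0.054 to 0.416), Gabra5 (-0.128 to 0.454), Gabrb2 (-0.245 to 0.270) and Lhfpl4 (-0.252 to 0.033) took both signs between glutamatergic and GABAergic nuclei, as did Nlgn2 when labels were left out (-0.020 to 0.289). Centring, leaving out each label, and leaving out set B between subclasses were chosen after seeing the data. No paired analysis was possible because each sample is 1 nucleus and the nucleus numbers pair nothing across vector labels. Depth limits the rare members: a gene with no read may lie in up to 0.779% of glutamatergic and 0.968% of GABAergic nuclei.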
